A study of Mus musculus with 15 samples.

Results

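The mammalian core circadian clock was examined through 10 genes, which are Arntl, Clock, Npas2, Per1, Per2, Per3, Cry1, Cry2, Nr1d1 and Nr1d2. They were chosen by gene name, and each was found as 1 locus among the 23589 loci with a gene name in a table of 33603 loci. RNA was sequenced from the liver, the epididymal fat, the mucosa of the intestine (called colon here), the hippocampus and the hypothalamus. The mice were male C57BL/6, with no genetic modification named in the labels. The mice were fed ad libitum (AL), were given 60% of what AL mice ate, for 1 month starting at 4 months of age (DR), or went through the same month of DR and then ate ad libitum for 2 months (DR-AL). AL and DR mice were killed at 5 months of age and DR-AL mice at 7 months, so the change of diet and the age of the DR-AL mice cannot be told apart. A library was made from the pooled RNA of 5 mice, and each combination of tissue and diet has 1, so that 15 were compared. The table places Arntl at chr7:120321849-120457640 on the plus strand and Nr1d1 at chr11:98602093-98636597 on the minus strand, positions of mm9 by the submitters' processing notes. The question the design poses for these genes is whether their transcripts differ after a month of DR and whether a difference is still seen after 2 months of AL feeding.

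The clock is a loop of transcription that runs once a day in nearly every cell. BMAL1 (the product of Arntl) pairs with CLOCK or its relative NPAS2, binds E-box sequences and drives the Per, Cry and Nr1d genes. PER and CRY proteins return to block that pair, while the nuclear receptors REV-ERB alpha (Nr1d1) and REV-ERB beta (Nr1d2) repress Arntl through ROR response elements. In the liver the phase of the loop follows the time of feeding, whereas the suprachiasmatic nucleus of the hypothalamus follows light. A transcript of the loop therefore has a level that depends on the hour at which tissue is taken. The hour of killing and the hour at which DR mice were fed are not given in the sources used here, so a difference between the diets and a difference in time of collection relative to feeding cannot be told apart for any value below.

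Counts on named loci ranged from 21767088 to 40500130 per library, and levels are given as CPM, which are counts scaled to an equal total of these in each library. Marker genes of the labelled tissue were high in all 15 libraries, but several libraries held RNA of other tissues. The epididymal fat libraries stood apart most. The 191 genes that were abundant in AL liver and nearly absent from AL colon, hypothalamus and hippocampus had a median of 14.7% of their liver level in AL fat, against 0.196% in DR fat and 0.0901% in DR-AL fat. All 7 testis germ cell markers were detected in each fat library, with a summed level of 4.77 CPM in AL, 583 CPM in DR and 2818 CPM in DR-AL, and the 8 epididymis markers summed to 910 CPM, 3388 CPM and 5136 CPM. Crisp1 made up most of the latter sums (846, 2802 and 4584 CPM), and while all 8 were higher in DR than in AL, only 3 of 8 were higher in DR-AL than in DR. Among the hypothalamus libraries, the 9 colon epithelium markers summed to 25.2 CPM in AL against 3.70 CPM in DR and 3.30 CPM in DR-AL, and the 8 markers of telencephalic excitatory neurons summed to 22.8, 69.1 and 53.0 CPM. In RNA of whole tissue, fewer cells of a type and less RNA per cell cannot be told apart.

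Sequence around the start of transcription was read for elements through which the loop is known to act. The RefSeq promoter windows of GRCm38.p6, which run from 250 bases before to 50 bases after a start (base 251 of the window), were found for 9 of the 10 genes, in 13 windows. Both strands were searched for the E-box CACGTG, the D-box TTANGTAA, the nuclear receptor half-site AGGTCA, and the longer ROR response element (RORE), which ends in that half-site. The 3 stretches of 120 bases before the start that follow hold the E-box or D-box of a member, and the 30 bases from just after the second annotated start of Arntl hold its RORE, with the matches in capitals.
Per1, chr11:69098729-69098848, plus strand, E-box: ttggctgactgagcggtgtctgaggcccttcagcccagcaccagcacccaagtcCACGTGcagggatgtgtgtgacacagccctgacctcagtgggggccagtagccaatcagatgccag
Cry1, chr10:85185085-85185204, minus strand, E-box: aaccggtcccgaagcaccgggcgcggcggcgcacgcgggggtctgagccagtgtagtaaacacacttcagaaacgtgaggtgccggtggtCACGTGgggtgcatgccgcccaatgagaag
Per3, chr4:151044766-151044885, minus strand, D-box: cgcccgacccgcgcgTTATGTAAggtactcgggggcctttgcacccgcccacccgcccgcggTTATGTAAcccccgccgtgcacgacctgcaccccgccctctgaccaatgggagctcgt
Arntl, chr7:113207526-113207555, plus strand, RORE: agggaaggcagAAAGTAGGTCAgggacgga
The E-box was found in Per1 and Cry1 and in 7.15% of all 32851 windows. The D-box, which is bound by the output factors DBP, TEF and HLF and by their opponent NFIL3, was found at 2 places in Per3 and in 2.32% of all windows. The half-site was found in Arntl, Clock, Per1 and Nr1d2 and in 16.3% of all windows, and the RORE in Arntl and in 0.384% of all windows. Npas2, Cry2 and Nr1d1 had no match to any of these elements in their windows, and Per2 had no window. A match is a run of letters and not a measured binding site.

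The levels of the 10 genes were first compared between tissues. The 3 libraries of a tissue, one per diet, served as its spread. Nr1d1 was the most abundant member per transcript length in 4 of the 5 tissues, with median FPKM values (fragments per length and depth) of 61.0 for liver, 43.6 for fat, 107 for colon and 36.0 for hippocampus, while Nr1d2 led in the hypothalamus at 24.0. Npas2 was the lowest in liver (0.106 FPKM), fat (0.292 FPKM) and hypothalamus (1.89 FPKM), and Per3 was the lowest in the colon (7.49 FPKM) and the hippocampus (3.42 FPKM).

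**Figure D1:**
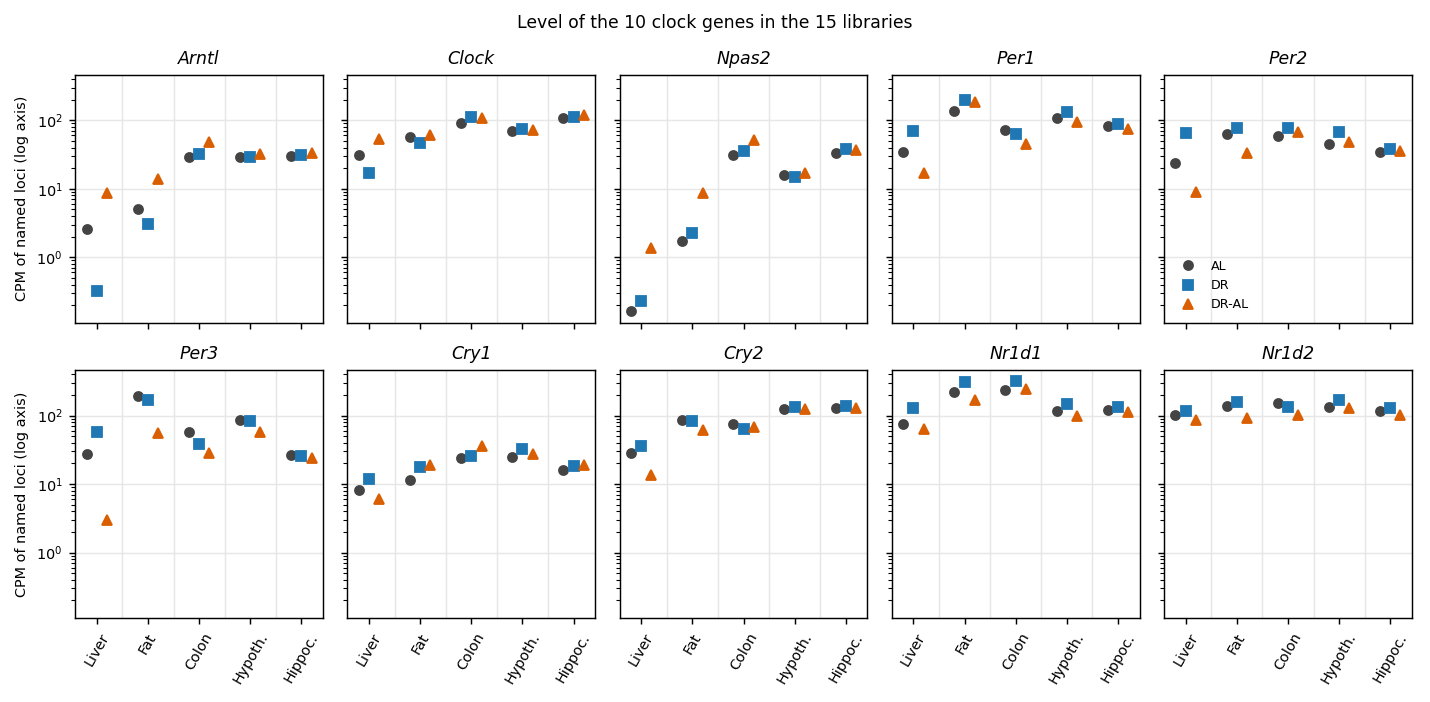
Level of each of the 10 clock genes in CPM of named loci (log axis) in liver, epididymal fat, colon, hypothalamus and hippocampus. Each point is 1 library from RNA of 5 mice, with a circle for AL, a square for DR and a triangle for DR-AL, and the widest gaps between diets are those of Arntl and Per3 in the liver.

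Arntl, which encodes the one activator that the loop cannot do without, had medians of 31.9 CPM in the colon, 31.0 CPM in the hippocampus and 29.2 CPM in the hypothalamus, whose ranges overlapped in that order. Fat (median 5.15 CPM, range 3.02 to 14.0) and liver (median 2.59 CPM, range 0.322 to 8.61) overlapped with each other and lay below the other tissues. Npas2 had the same 3 tissues on top, at 37.3 CPM in the hippocampus, 35.4 CPM in the colon and 15.7 CPM in the hypothalamus, and then fat at 2.28 CPM and liver at 0.230 CPM without overlap between neighbours other than hippocampus and colon. Clock ranged from 112 CPM in the hippocampus to 30.6 CPM in the liver. Nr1d1 was highest in the colon (246 CPM) and fat (222 CPM), which overlapped, and lowest in the liver (75.1 CPM). Nr1d2 was the most even member, with medians between 100.2 and 136 CPM and overlap between all neighbours in the order. Per1 and Per3 were highest in fat, at 188 and 166 CPM, and all members but Per3 had their lowest median in the liver.

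The difference in level between the 2 brain regions and the other 3 tissues was tested in edgeR, by quasi-likelihood on all 15 libraries, with terms for tissue and diet. Of 17476 genes tested, 80.3% were called, and of the 10 members 5 were called, a smaller share than that of all genes. Brain was higher for Npas2 (log2 difference 2.09, SE 0.29, adjusted p = 4.68e-05), Arntl (1.37, SE 0.38, adjusted p = 0.00605) and Cry2 (0.87, SE 0.15, adjusted p = 0.000199). It was lower for Nr1d1 (-1.002, SE 0.11, adjusted p = 6.67e-06) and Nr1d2 (-0.36, SE 0.10, adjusted p = 0.00527). The Arntl difference did not pass without the fat libraries (0.72, adjusted p = 0.0820), and that of Nr1d2 did not pass without the liver libraries (-0.13, adjusted p = 0.320) or without the hippocampus libraries (-0.35, adjusted p = 0.0586). The tissues came from the same mice, and the test takes each tissue as fixed, so it compares these 5 tissues only.

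Diets were compared within each tissue. With 1 library per tissue and diet there is no replicate check of any difference. A gene counted as changed when the Z test of the study's methods, which allows for counting error alone, gave a Benjamini-Hochberg adjusted p under 0.05 over all genes tested and the fold change was at least 1.25 (0.32 on the log2 scale). The test compares 2 libraries and not the diets, and the intervals in brackets are exact 95% intervals that cover counting error only. Each count of members by this rule is set beside the percentage of all genes tested that met it. Counts by other rules or scalings are given without such a percentage.

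In the liver the loop differed between the diets as 2 opposed sets of genes. The activators Arntl and Clock were lowest in DR and highest in DR-AL, whereas all 3 Per genes, both Cry genes and both Nr1d genes were highest in DR and lowest in DR-AL, and the AL library lay between for each of these 9 members. Between DR and AL, 7 of the 10 members changed, 5 up and 2 down, where 28.0% of all genes did. Between DR-AL and AL, 8 changed, 3 up and 5 down, against 30.9%. Between DR-AL and DR all 10 changed, 3 up and 7 down, against 40.8%.

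Arntl was counted 64 times in AL, 7 times in DR and 211 times in DR-AL, which is 2.59, 0.322 and 8.61 CPM. Arntl was nearly absent from the DR liver and highest after the return to AL feeding. DR lay below AL by 2.93 on the log2 scale (log2 difference -2.93 [-4.38, -1.88]), DR-AL lay above AL by 1.73 [1.33, 2.16], and DR-AL lay above DR by 4.66 [3.68, 6.08]. Clock, whose product is the histone acetyltransferase partner of BMAL1, was at 30.6 CPM in AL, 17.0 CPM in DR and 53.8 CPM in DR-AL. It moved in the same order over a narrower range, with log2 differences of -0.85 for DR against AL and 0.81 for DR-AL against AL. Npas2 was counted 4, 5 and 33 times, too few in AL and DR for those libraries to be told apart (0.46 [-1.71, 2.84]), and was higher in DR-AL than in AL by 2.90 [1.57, 5.02]. The 9 colon epithelium markers summed to 31.0 CPM in AL, 124 CPM in DR and 23.0 CPM in DR-AL liver, against 35991 CPM in AL colon, and 8 of 9 were higher in DR liver than in AL liver, with 1 at 0 in DR. Arntl and Npas2 are more abundant in the colon than in the liver, and the part of this RNA in the liver values was not tested.

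The Per genes encode the period proteins, which limit the activity of the activators. Per1 was at 34.8 CPM in AL, 69.4 CPM in DR and 17.3 CPM in DR-AL, and Per2 was at 23.7, 65.9 and 9.02 CPM. Per3, which has the pair of D-boxes shown above, was at 27.9, 57.4 and 2.98 CPM. All 3 were highest in DR, and Per3 in DR-AL had 73 counts where DR had 1250. Against AL, the DR library was higher by 1.00 for Per1, 1.47 for Per2 and 1.04 for Per3 on the log2 scale. The DR-AL library was lower than AL, with log2 differences of -1.01 for Per1, -1.39 for Per2 and -3.22 for Per3. Per3, when the 9370 liver genes averaging 100 counts or more were ordered by size of difference, had the 23rd largest difference between DR-AL and AL and the 19th largest between DR-AL and DR (-4.26 [-4.63, -3.93]). Per2 ranked 65th and Per1 189th in the second of these comparisons. Arntl and Npas2 were too low in the liver to be ranked.

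Cry1 and Cry2 encode the cryptochromes, which carry most of the repression. Cry1 was at 8.29, 11.9 and 6.08 CPM in AL, DR and DR-AL, and Cry2 at 28.7, 35.3 and 13.6 CPM. Both were lowest in DR-AL, and Cry2 differed little between DR and AL (0.30 [0.15, 0.45], under the fold required). DR-AL was lower than AL by a log2 difference of -0.44 for Cry1 and -1.07 for Cry2. Of the receptors, Nr1d1 was at 75.1, 127 and 63.6 CPM, and Nr1d2 at 100.2, 118 and 84.8 CPM. Nr1d1 rose in DR (0.76 [0.67, 0.84]) and was not called between DR-AL and AL (-0.24 [-0.34, -0.14]), and Nr1d2 was called only between DR-AL and DR (-0.47).

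**Figure D2:**
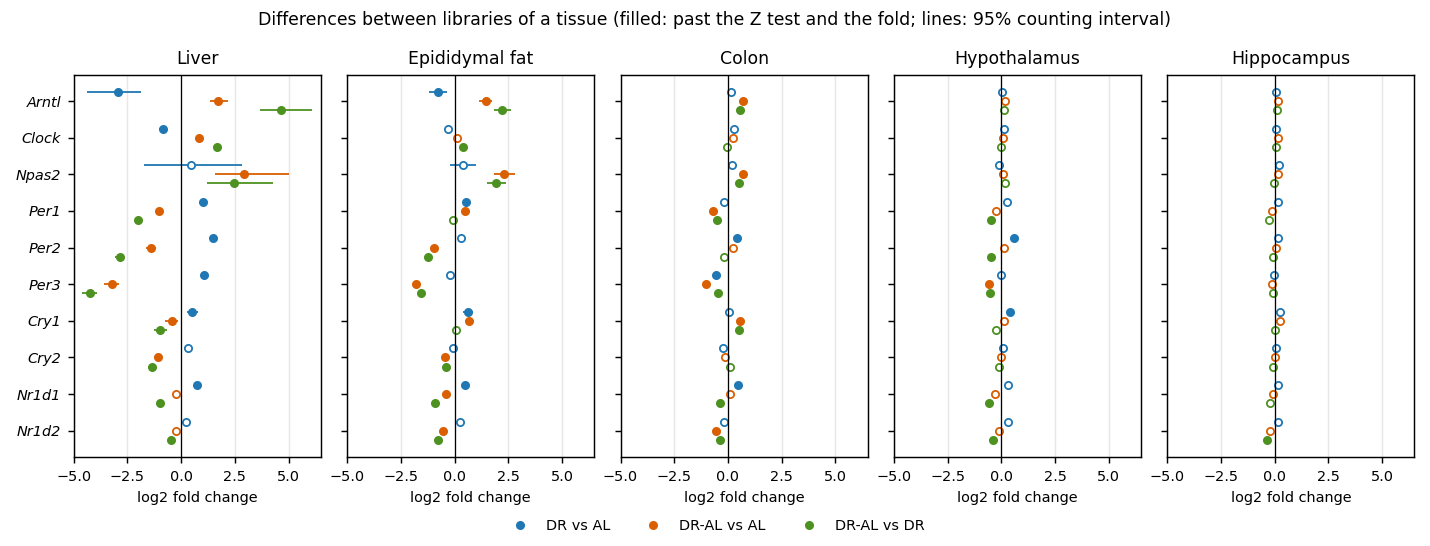
Log2 fold change of each clock gene between the libraries of a tissue, with DR against AL in blue, DR-AL against AL in orange and DR-AL against DR in green. Lines are exact 95% intervals for counting error, filled points met the Z test and the fold of 1.25, and the 3 comparisons share libraries. In the liver all 10 green points are filled, and in the hippocampus 1 of 10 is.

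The spread over the 3 libraries of a tissue, as the highest minus the lowest level on the log2 scale, put the liver first. The median member spanned 1.83 there, against 0.56 for the 12823 genes that averaged 10 counts or more, and 6 members lay above the 90th percentile of those genes (1.42). Arntl spanned 4.66, Per3 4.26, Npas2 2.90 and Per2 2.87, and Nr1d2 spanned the least at 0.47. Npas2 is among those 6, but with 4, 5 and 33 counts in AL, DR and DR-AL it averaged 10 only through DR-AL. The median member of fat spanned 0.85 beside 0.72 for all genes, that of colon 0.56 beside 0.30, and that of hypothalamus 0.39 beside 0.20. For hippocampus it spanned 0.18, and so did the median of all genes. The AL library lay between DR and DR-AL for 9 members of the liver (50.6% of all genes there), 5 of fat (25.0%), 0 of colon (29.2%), 5 of hypothalamus (27.0%) and 3 of hippocampus (32.7%). This order was looked at after the values were seen.

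**Figure D3:**
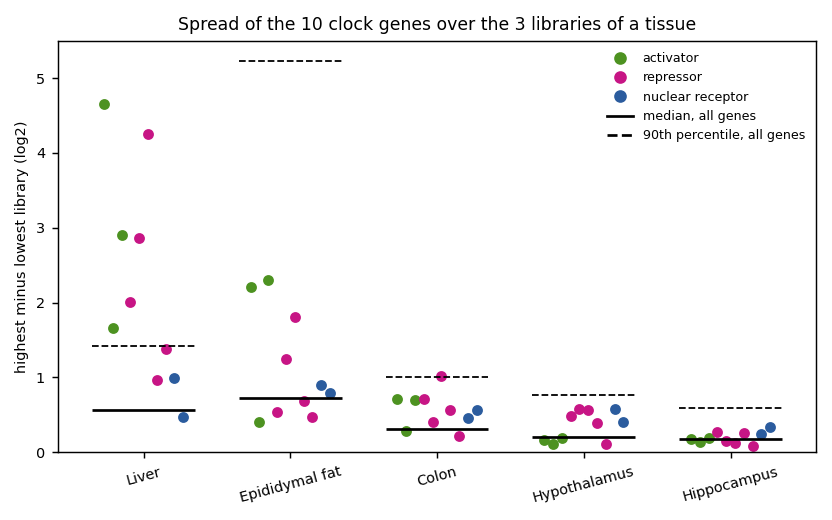
Spread of each clock gene over the AL, DR and DR-AL libraries of a tissue, as highest minus lowest level on the log2 scale. Points are genes coloured by role, solid bars are the median and dashed bars the 90th percentile of the genes that averaged 10 counts or more. Only in the liver do most members lie above the dashed bar, and in fat the dashed bar stands at 5.23.

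In epididymal fat the direction of small differences depended on the scaling. Over 17306 genes that averaged 10 counts or more, the median log2 fold change was 0.24 for DR against AL, 0.34 for DR-AL against AL and 0.24 for DR-AL against DR with counts divided by totals. With DESeq size factors these medians were 0.05, 0.00 and 0.09, and with FPKM values -0.45, -1.18 and -0.58, so the values below are relative to such shifts. Between DR and AL 4 members changed, 3 up and 1 down, where 45.6% of all genes did. The split was 2 up and 3 down with size factors and 0 up and 6 down with FPKM. Between DR-AL and AL 9 changed, 4 up and 5 down, against 57.9% of all genes, and between DR-AL and DR 8 changed, 3 up and 5 down, against 51.6%. With FPKM these were 1 up and 8 down, and 2 up and 8 down. The members' share was near that of all genes between DR and AL and above it in both comparisons with DR-AL.

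The members with the largest differences in fat were those of the liver. Arntl was at 5.15 CPM in AL, 3.02 CPM in DR and 14.0 CPM in DR-AL, and Npas2 at 1.75, 2.28 and 8.70 CPM. Both were highest in DR-AL, with log2 differences from AL of 1.44 [1.16, 1.74] and 2.30 [1.85, 2.80]. FPKM values put Arntl in DR-AL below AL (-0.16) but above DR (1.13). Per3 was at 194 CPM in AL, 166 CPM in DR and 55.8 CPM in DR-AL, and Per2 at 63.4, 77.8 and 32.9 CPM. Both were lowest in DR-AL, by log2 differences from AL of -1.80 for Per3 and -0.95 for Per2. Nr1d1 (222, 310 and 166 CPM) and Nr1d2 (136, 160 and 92.4 CPM) were highest in DR and lowest in DR-AL by CPM, while FPKM put both lower in DR than in AL. Per1 (136, 197 and 188 CPM) and Cry1 (11.6, 18.0 and 18.7 CPM) were lowest in AL with CPM, and with FPKM were not.

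The RNA of liver in the AL fat library amounted to between 1.36% and 10.8% of a member's level there, as estimated from the AL liver level and the share of liver genes. With that part subtracted, no member that changed in fat turned its direction. The log2 difference between DR-AL and AL was then 1.32 for Arntl, 2.09 for Npas2 and -2.00 for Per3, and that between DR and AL was 0.36 for Per1 in place of 0.53. All 7 testis germ cell markers were higher in DR than in AL and higher again in DR-AL. The 6 smooth muscle markers, none at 0, summed to 1247 CPM in AL, 3702 CPM in DR and 1215 CPM in DR-AL fat, with 6 of 6 higher in DR than in AL and 0 of 6 higher in DR-AL than in DR. The part of the testis, epididymis and smooth muscle markers in the fat values was not tested.

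In the colon, 3 members changed between DR and AL, 2 up and 1 down, where 19.7% of all genes did, and 6 changed between DR-AL and AL, 3 up and 3 down, against 14.3%. Between DR-AL and DR 7 changed, 3 up and 4 down, against 14.5%. The activators Arntl (29.1, 31.9 and 47.5 CPM in AL, DR and DR-AL) and Npas2 (31.3, 35.4 and 50.8 CPM) were highest in DR-AL, by log2 differences from AL of 0.71 and 0.70. Cry1 went with them, at 24.4, 25.4 and 36.1 CPM. Per1 (72.6, 62.9 and 44.4 CPM), Per3 (57.1, 38.5 and 28.2 CPM) and Nr1d2 (152, 134 and 103 CPM) were lowest in DR-AL. The Per3 difference of -1.02 [-1.15, -0.89] between DR-AL and AL ranked 91st of 10503 genes. Unlike in the liver, Per1 and Per3 in the DR library lay below AL in the colon, where Per3 was called (-0.57) and Per1 was not (-0.21). Per2 and Nr1d1 were highest in DR, at 77.1 CPM against 58.3 CPM in AL and at 319 CPM against 233 CPM. The 6 smooth muscle markers, none at 0, summed to 60.1 CPM in AL, 78.8 CPM in DR and 28.7 CPM in DR-AL colon, and their part in these values was not tested. Whether the differences between tissues exceed the error between mice was not tested, since each rests on single libraries.

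In the hypothalamus, 2 members changed between DR and AL, both up, where 7.05% of all genes did. They were Per2, at 44.9 CPM in AL, 67.2 CPM in DR and 48.3 CPM in DR-AL, and Cry1, at 25.1, 32.9 and 27.7 CPM. Per3 alone changed between DR-AL and AL, at 57.7 CPM against 85.5 CPM, where 15.1% of all genes changed. Between DR-AL and DR 5 members changed, all down, against 9.62% of all genes, and these were Per1, Per2, Per3, Nr1d1 and Nr1d2, with log2 differences from -0.58 to -0.40. Arntl stayed within 28.7 to 32.0 CPM, Clock within 68.8 to 74.1 CPM and Npas2 within 14.8 to 16.8 CPM, with no call. When libraries were allowed a coefficient of variation of 0.1 in edgeR's exact test, none of these hypothalamus differences was called.

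The suprachiasmatic nucleus is a part of the hypothalamus, and its share of each pool is not known. All 10 of its markers were detected in each library, with a summed level of 593 CPM in AL, 456 CPM in DR and 298 CPM in DR-AL, most of it from Avp, a gene that other hypothalamic neurons also use. Vip, the peptide of the ventral part of the nucleus, was at 10.7 CPM in AL, 20.4 CPM in DR and 10.1 CPM in DR-AL, and Rgs16 at 23.1, 51.0 and 39.3 CPM. Of the 10 markers, 8 were higher in DR than in AL. Per2 and Cry1 were highest in the same library as Vip and Rgs16. Other markers ran otherwise. Avp and Six6 (20.5, 16.9 and 7.69 CPM) were highest in AL, and Grp (2.36, 3.48 and 4.42 CPM) was highest in DR-AL. Rgs16 is not particular to the nucleus, and was at 64.8, 521 and 25.3 CPM in AL, DR and DR-AL liver. All 6 smooth muscle markers were higher in DR than in AL and 1 of 6 was higher in DR-AL than in DR, with sums of 27.1 CPM for AL, 69.9 CPM for DR and 33.9 CPM for DR-AL. The part of either list in the values of Per2 and Cry1 was not tested.

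The hippocampus showed the smallest differences. No member changed between DR and AL or between DR-AL and AL, where 4.03% and 6.15% of all genes did, and Nr1d2 alone changed between DR-AL and DR, against 4.88% of all genes. Nr1d2 was at 117 CPM in AL, 128 CPM in DR and 101 CPM in DR-AL (DR-AL against DR -0.34 [-0.41, -0.27]). Nr1d1 was at 119, 133 and 112 CPM and Per1 at 81.3, 89.0 and 74.1 CPM, in the same order of diets with no call. The counts behind each member ranged from 473 to 5215 in this tissue. FPKM values, without a test, put 2 members past the fold between DR and AL. They put 3 past it between DR-AL and AL, and 2 between DR-AL and DR. Over 15220 genes of this tissue, the median log2 fold change with FPKM was 0.11, 0.13 and 0.0078 in the same order. With counts divided by totals it was -0.0059, 0.0039 and 0.0087. The part of this shift in the members past the fold was not tested.

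The ratio of Arntl to Nr1d1 needs no scaling between libraries, since both counts come from the same library. On the log2 scale the liver had -4.85, -8.53 and -2.88 for AL, DR and DR-AL, and fat had -5.43, -6.67 and -3.57. It was -3.00, -3.32 and -2.37 in the colon, -2.03, -2.32 and -1.60 in the hypothalamus, and -2.00, -2.09 and -1.75 in the hippocampus. In each of the 5 tissues the ratio was lowest in DR and highest in DR-AL. From DR to DR-AL it differed by 5.64 for liver, 3.10 for fat, 0.95 for colon, 0.72 for hypothalamus and 0.35 for hippocampus. The ratio of Arntl to Per3 was also highest in DR-AL in each tissue, but in colon, hypothalamus and hippocampus its lowest library was AL. For AL, DR and DR-AL it was -0.97, -0.27 and 0.75 in the colon and -1.57, -1.52 and -0.85 in the hypothalamus. Hippocampus had 0.18, 0.29 and 0.46, liver -3.42, -7.38 and 1.52, and fat -5.23, -5.77 and -1.99. Both ratios are given as descriptions, with no test, and the mice behind the 5 tissues are the same.

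**Figure D4:**
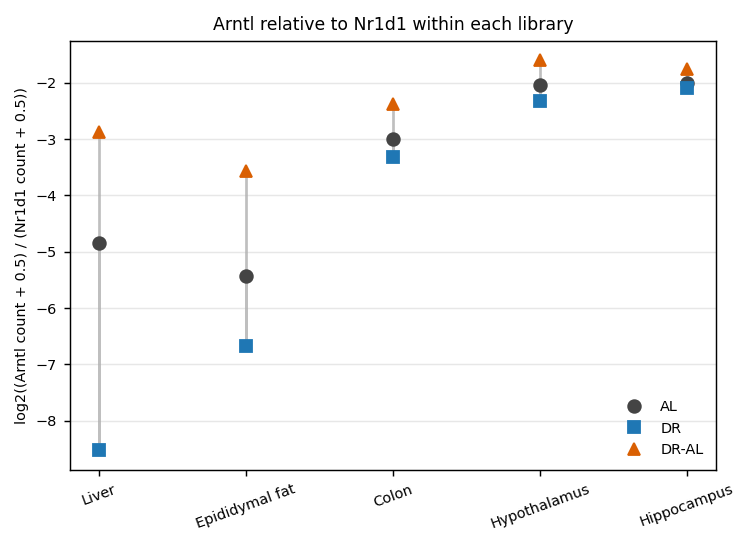
Log2 ratio of the Arntl count to the Nr1d1 count (each plus 0.5) in each of the 15 libraries, by tissue. Circles are AL, squares DR and triangles DR-AL, each 1 library, and a grey line joins the 3 libraries of a tissue. In every tissue the square is lowest and the triangle highest, from -8.53 and -2.88 in the liver to -2.09 and -1.75 in the hippocampus.

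Whether a diet effect was shared by the tissues was tested in edgeR, by quasi-likelihood on all 15 libraries with tissue as a term. No member was called in any of the 3 contrasts, where 0.0114% (DR against AL), 0.00572% (DR-AL against AL) and 0.0114% (DR-AL against DR) of 17476 genes were called. At an unadjusted p under 0.05 there were 1, 3 and 7 members, and 657, 862 and 656 genes in all. The 7 members of DR-AL against DR were Arntl, Npas2, Per1, Per2, Per3, Nr1d1 and Nr1d2, whose adjusted p was 0.976. Nr1d1 had the smallest error relative to its difference (-0.61, SE 0.13) and was lower in DR-AL than in DR in all 5 tissues. So were Per1, Per2, Per3 and Nr1d2, called or not, while Arntl was higher in DR-AL than in DR in all 5. DESeq2 with the same model called Nr1d1 in that contrast (-0.61, adjusted p = 0.0312), where it called 9 of 17476 genes, and no other member in any of the 3 contrasts. Arntl (1.20, SE 0.47), Per3 (-1.20, SE 0.48) and Per2 (-0.91, SE 0.34) had larger differences and larger errors. Without the fat libraries no member was called either.

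Whether the diet effect differed between liver, fat and colon and the brain regions was tested as an interaction in the same model. None of the 10 members was called, where 0% (DR against AL), 0.126% (DR-AL against AL) and 0% (DR-AL against DR) of all genes were. At an unadjusted p under 0.05 there were 0, 1 and 2 members, and 684, 1096 and 574 genes in all, and DESeq2 called no member. The difference for Arntl in DR-AL against DR was 1.88 with an SE of 0.81, and that for Npas2 in DR-AL against AL was 1.54 with an SE of 0.53 (adjusted p = 0.603). Without the colon libraries, the Npas2 difference was 2.23 and was called (adjusted p = 0.0412), in a fit that called 321 of 17123 genes against 22 of 17476 with all tissues. The wider spread of the members in liver and fat than in brain is thus a description of single libraries that this test did not separate from the spread between tissues of a class.

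Other genes of the pathway were taken from a list of 22, of which 21 were found. In the liver, 7 rose and 3 fell in DR against AL, where 28.0% of all genes changed. In DR-AL against AL 2 rose and 10 fell, beside 30.9% of all genes, and in DR-AL against DR 3 rose and 14 fell, beside 40.8%. Among the outputs, Dbp, a PAR bZIP factor driven by E-boxes and bound to D-boxes, was at 57.3 CPM in AL, 127 CPM in DR and 16.8 CPM in DR-AL. Nfil3, which represses through the same D-boxes, ran the other way at 18.1, 5.51 and 24.0 CPM. Dbp and the Per genes were thus highest, and Nfil3 lowest, in the DR liver. Tef (171, 235 and 79.2 CPM) and Usp2 (51.0, 92.3 and 11.4 CPM), a deubiquitinase, followed Dbp. Of the 5 feedback factors measured 4 rose in DR, among them Ciart, a repressor of the activator pair, at 14.8, 48.7 and 3.88 CPM, and Bhlhe40, a repressor that competes for E-boxes, at 63.6, 125 and 36.0 CPM. All 5 fell between DR and DR-AL.

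Outside the liver, Dbp was at 57.9, 127 and 15.6 CPM in AL, DR and DR-AL fat, 74.7, 97.9 and 30.9 CPM in the colon, and 40.7, 54.1 and 29.8 CPM in the hypothalamus, where each difference between diets was called. In the hippocampus it was at 31.0, 38.6 and 23.3 CPM, and DR against AL was not called (0.31). Ciart was lowest in DR-AL in all 5 tissues, at 3.66 CPM in fat, 10.4 CPM in the colon, 10.6 CPM in the hypothalamus and 8.11 CPM in the hippocampus, and was called against DR in each. Usp2 differed by tissue, and was highest in DR-AL in fat (137 CPM against 23.8 CPM in AL) where it was lowest in the liver and the colon. Its rise in fat, with 81.2 CPM in DR, ran in the same order as the testis germ cell markers there (4.77, 583 and 2818 CPM). The part of that RNA in the Usp2 values was not tested. The 6 kinases and ubiquitin ligases that act on PER and CRY proteins had no call in either brain region, where 4.03% to 15.1% of all genes changed. In the liver 0 rose and 1 fell in DR against AL (28.0% of all genes changed). There 1 rose and 0 fell in DR-AL against AL (30.9%), and 2 rose and 2 fell in DR-AL against DR (40.8%). In the same order, fat had 0 up and 1 down (45.6%), 2 and 0 (57.9%), and 2 and 0 (51.6%). The colon had 0 and 3 (19.7%), 0 and 1 (14.3%), and 1 and 0 (14.5%). Rora, which encodes a receptor that activates Arntl, was not called in the liver in any contrast (53.0, 50.6 and 62.1 CPM).

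Genes were ranked by the correlation of their log2 CPM with that of Arntl over the 15 libraries, after the mean of each tissue was taken off, with 14088 genes that averaged 100 counts or more. The points share 3 libraries per tissue and the liver has the widest range. Among the highest were Pdpk1 (r = 0.99), Abhd2 (0.96), Med28 (0.95) and the member Clock (0.95), and without the liver libraries Clock was at 0.76. The 5 lowest were Paox (-0.98), Chst8 (-0.98), Rere (-0.97), Ephb6 (-0.97) and Gm5113 (-0.96). Per2 was at -0.95 and Per3 at -0.90, while Cry1 was at -0.47 and turned to 0.36 without the liver. For Nr1d1 the 5 highest were Copz1 (0.94), Tbc1d2b (0.93), Park7 (0.92), Gm129 (Ciart, 0.92) and Bhlhe40 (0.91). The 5 lowest were Cd83 (-0.95), Iba57 (-0.93), 2810013P06Rik (-0.92), Map1lc3a (-0.92) and Fam63a (-0.90). Per2, at 0.87, was the member most like Nr1d1, and Arntl was at -0.83. Without the fat libraries other genes led each list, with only Cd83 and Map1lc3a kept.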

How the data were processed

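Ribosomal RNA was removed from pooled RNA, and stranded paired-end libraries were sequenced. The authors describe trimming, orientation-specific alignment to mm10 in Strand software and removal of duplicates. The processing notes with the labels name mm9 and DESeq2, and only 13.6% of the 21384 gene symbols matched lie over their GRCm38 position in the deposited table, so the positions of the table were taken as mm9 and not compared with those of the promoters. The authors deposited whole-number counts per locus without normalization, and FPKM values whose scaling between libraries is not given in the sources used here. All 30 columns of values were used. Unnamed loci, with 0.258% to 1.39% of counts, were left out.

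CPM were computed from counts on named loci. The Z test compared square roots of counts divided by totals, and took in every gene that had 1 count or more in a tissue. Log2 fold changes used a pseudocount of 0.5, added after scaling each tissue's libraries to their mean total. Intervals are exact Clopper-Pearson intervals at 95%. Effects over tissues were fitted with edgeR 4.0.16 (TMM, filterByExpr by tissue, glmQLFit) and, as an alternative, DESeq2 1.42.0, with Benjamini-Hochberg adjusted p. Both tests were tested on simulated data. Other alternatives were size factors, a fold of 2, an exact test with a coefficient of variation of 0.1, FPKM with a pseudocount of 0.1, a pseudocount of 5, a mean of at least 10 counts, RLE, no filter, no tissue term, subsets of tissues and each tissue left out. The genes named are the 10 members, the pathway list, the marker lists and the 5 genes at each end of the correlation. Some of these genes are not reported here. The members and lists were chosen with earlier results of these data known. Cipc could not be matched to a locus, Wee1 was read at the locus with more counts, and Ciart is listed as Gm129. Nr1d1 overlaps Thra on the opposite strand. The libraries kept the strand of the reads, but whether the counts at the Nr1d1 locus hold reads of Thra was not tested.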

Additional observations from a re-analysis of the deposited data

How the results depend on the processing

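With a fold of 2 in place of 1.25, the members changed in the liver between DR and AL numbered 3, those in fat 0, 3 and 4 (DR against AL, DR-AL against AL, DR-AL against DR), those in the colon 0, 1 and 0, those in the hypothalamus 0, 0 and 0, and those in the hippocampus between DR-AL and DR 0. The exact test that allows a coefficient of variation of 0.1 gave 2 in fat between DR and AL, 0, 3 and 0 in the colon, 0, 0 and 0 in the hypothalamus, and 0 in the hippocampus between DR-AL and DR. The 2 in fat, both down, were Arntl, which the Z test had also called, and Clock, which it had not. The 3 that were up (Per1, Cry1 and Nr1d1) were lost. The exact test scaled libraries by TMM and not by totals, and the part of that scaling in these calls was not tested. FPKM gave 3 in the hypothalamus between DR-AL and DR and 2, 3 and 2 in the hippocampus. The share of all genes that met each of these altered rules is not reported here. The counts therefore show only how the calls of members moved with the rule, not whether members passed it more often than other genes. FPKM also turned log2 fold changes that had been called. In fat these were -0.30 for Per1, -0.0069 for Cry1 and -0.37 for Nr1d1 between DR and AL, -0.16 for Arntl, -1.17 for Per1 and -0.80 for Cry1 between DR-AL and AL, and -0.55 for Clock between DR-AL and DR, and in the colon 0.0013 for Nr1d2 between DR-AL and DR. The cause was not tested.

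DESeq2 called 1 member shared by the tissues between DR-AL and DR. With each tissue left out in turn, the members called for a difference between tissue classes in DR-AL against AL ranged from 0 to 1, and those called for level from 4 to 7. The shared difference of Cry1 between DR-AL and DR ranged from -0.26 to 0.045, and level differences from -0.29 to 0.66 for Clock, -0.29 to 0.24 for Per1, -1.14 to 0.081 for Per3 and -0.28 to 0.41 for Cry1. Size factors left 123 of 150 log2 fold changes within their counting interval and turned none that was called, and a pseudocount of 5 left all 150 there. The tissue term sets the diets against each other within tissues, and without it 0 members were called in each shared contrast. No other pairing was tried. With single libraries, depth sets only the counting error, which is widest for Npas2 and Arntl in the liver.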
